A study of Mus musculus with 2 samples.

Results

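The genes described here are 10 that differed in summed counts between db/db and wild-type retinal bipolar cells: Tacr3, Ebf1, Nxph1, Neto1, Slit2, Cacna2d2, Kcnip4, Nfib, Slc16a7 and Nxph3. They were picked by symbol, out of 32285 genes in the count matrices, because of that difference, so the difference itself is a description here and supports nothing. All 10 were found in both libraries. The question was which bipolar subtypes carry each gene, and whether the libraries differ in the level inside those cells or in how many such cells they hold.

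The study compared retinas of C57BLKS-Leprdb/db mice (db/db), which lack the long leptin receptor and are a model of obesity and type 2 diabetes, with retinas of untreated C57BLKS-Leprwt/wt mice (wild type, also called m/m in the design text). The db/db mice were untreated as well, and all mice were 13 weeks old. Retinas of both eyes of 2 mice per genotype were digested with enzymes and run as 1 droplet library per genotype (10x Genomics 3' v3.1), so that cells cannot be assigned to a mouse here. The matrices hold 11083 barcodes in the db/db library and 10308 in the wild-type library, with 33742189 and 35642274 unique molecular identifiers (UMIs, counts of captured RNA molecules). After filters, 10963 db/db and 10230 wild-type cells remained, with a median of 2051 UMIs per cell in the db/db library and 2314 in the wild-type library. Lepr had 6 UMIs in each library, and a 3' count of this gene checks neither the mutation nor the labels. The libraries shared 26 barcodes, none of them among bipolar cells.

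Bipolar cells carry the signal of photoreceptors to the inner retina. Rod bipolar cells and ON cone bipolar cells answer to light increments through the receptor mGluR6 (Grm6), while OFF cone bipolar cells answer to light decrements through ionotropic glutamate receptors, with the kainate receptor subunit Grik1 as a common marker. Each kind of cone bipolar cell splits into subtypes that are told apart by their own adhesion molecules, transcription factors and channels, and several of the genes described here are of those kinds.

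Cells were clustered over both libraries, and 510 db/db and 727 wild-type cells formed the bipolar-like class. The name required at least 3 of the bipolar markers, such as Otx2, Trpm1 and Pcp2, at a raised level. Raised meant no less than 2 times the level in clusters named as other classes, with rod and unnamed clusters left out. The class made up 4.65% of db/db cells and 7.11% of wild-type cells. It summed to 1702536 UMIs in the db/db library and 2389039 in the wild-type library. Median depth in the class was 2988 UMIs per cell in the db/db library and 2934 in the wild-type library. The class was divided into 11 sub-clusters without using the 10 genes. Of these, 1 was named rod bipolar, 4 ON cone bipolar and 2 OFF cone bipolar, and 4 stayed unnamed because they led with photoreceptor genes or held too few markers. With 1 library per genotype there is no replicate and no test between genotypes. Every interval given is a 95% interval for counting error only, and since several UMIs of a gene can come from the same cell, the intervals on UMIs are too narrow.

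The 10 genes fell into 2 sets, each mostly in its own sub-cluster among those named OFF cone bipolar. That name is less sure for sub-cluster 6, where the summed ON cone markers stood above the OFF markers, as given below. Tacr3, Ebf1, Nxph1, Neto1 and Slit2 sat in sub-cluster 6, whose other leading genes were Irx6, Erbb4, Chrnb3, Lamp5 and Syt2. Cacna2d2, Kcnip4, Nfib, Slc16a7 and Nxph3 sat mostly in sub-cluster 8, led by Lrrtm3, Adamtsl1, Slitrk6, Otor and Grik1. Sub-cluster 6 made up 4.31% of db/db bipolar-like cells and 8.80% of wild-type ones, while sub-cluster 8 made up 20.2% of db/db and 11.1% of wild-type ones. Inside the home sub-clusters the ratios of 8 of the 10 genes had counting intervals that included 0, and those of Tacr3 and Ebf1 did not. Ebf1 did not differ beyond counting error in the finer division that carries it. Some intervals in other groups were clear of 0, such as Nxph3 in the Gas1 sub-cluster, Slit2 in rod bipolar-like and Cacna2d2 in ON cone bipolar-like cells. Gates on the UMIs of markers or leading genes gave larger ratios for all 10. These gates mix cells of several sub-clusters, so a shift between sub-clusters enters their ratios.

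Start regions are shown for 3 genes: Tacr3 and Slit2 of sub-cluster 6, whose windows held the letters TATAAA, and Cacna2d2 of sub-cluster 8. Ebf1 and Nxph1 of sub-cluster 6 and Kcnip4 of sub-cluster 8 also had windows, which are not shown. Each line gives 250 bases before to 50 after the gene's start as RefSeq places it on GRCm38.p6, 5′ to 3′ on the gene's strand. For Slit2 and Cacna2d2 the GENCODE start given below lies upstream of the RefSeq one, and the Cacna2d2 window lies wholly inside the GENCODE gene span. Tacr3 is at chr3:134828757-134829056 and Slit2 at chr5:47982905-47983204, and Cacna2d2, of sub-cluster 8, at chr9:107399630-107399929, all on the plus strand. Capitals mark the letters TATAAA of the core promoter element bound by the TATA-binding protein.
Tacr3: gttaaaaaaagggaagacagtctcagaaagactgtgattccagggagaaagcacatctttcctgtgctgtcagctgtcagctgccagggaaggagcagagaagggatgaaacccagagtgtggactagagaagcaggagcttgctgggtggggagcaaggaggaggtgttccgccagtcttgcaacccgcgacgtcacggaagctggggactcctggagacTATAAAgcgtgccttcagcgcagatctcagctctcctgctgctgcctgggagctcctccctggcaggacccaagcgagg
Slit2: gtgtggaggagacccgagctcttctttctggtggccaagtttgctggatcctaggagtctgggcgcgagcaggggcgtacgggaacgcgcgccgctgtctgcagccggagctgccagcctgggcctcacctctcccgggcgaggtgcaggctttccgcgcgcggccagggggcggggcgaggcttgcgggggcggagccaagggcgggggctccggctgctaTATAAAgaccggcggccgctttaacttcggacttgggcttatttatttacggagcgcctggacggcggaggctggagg
Cacna2d2: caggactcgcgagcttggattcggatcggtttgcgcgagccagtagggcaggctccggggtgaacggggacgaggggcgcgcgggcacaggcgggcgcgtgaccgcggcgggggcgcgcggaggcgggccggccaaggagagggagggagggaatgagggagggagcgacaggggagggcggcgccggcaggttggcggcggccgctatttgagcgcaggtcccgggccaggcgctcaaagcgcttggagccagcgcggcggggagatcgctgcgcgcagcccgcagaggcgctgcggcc
The letters TATAAA start at base 222 of the Tacr3 window and at base 223 of the Slit2 window. They were found in 13.6% of 32851 promoter windows of the same length, on either strand. Windows were examined for 6 of the 10 genes, 8 windows in all, and TATAAA occurred in 2 of them. Neto1, Nfib, Slc16a7 and Nxph3 had no window examined here, so the motif counts do not cover these genes. None of the 8 windows held TAATCC (core of the OTX homeobox site, in 7.06% of all windows), CATATG (an E-box, 3.92%), the EBF palindrome of TCCC and GGGA around 2 free bases (0.904%) or the NFI palindrome of TTGGC and GCCAA around 5 free bases (0.0365%). No overlaps among these motifs were counted, and a window without the letters says nothing about a factor elsewhere in the gene. The Cacna2d2 window had a GC content of 75.7%, against 57% for Tacr3 and 68% for Slit2. Among the windows not shown, those of Kcnip4, of sub-cluster 8, had 51% and 59.7%. Of sub-cluster 6, the windows of Ebf1 had 36.7% and 53% and that of Nxph1 had 64%. GC content thus did not set the genes of the sub-clusters apart.

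In GRCm38 with the GENCODE M21 annotation, all 10 are protein-coding genes. Tacr3 (ENSMUSG00000028172) spans 134829007 to 134934579 of chromosome 3 on the plus strand. Ebf1 (ENSMUSG00000057098) spans 44617317 to 45008091 of chromosome 11, and Nxph1 (ENSMUSG00000046178) 8948431 to 9249032 of chromosome 6, both on the plus strand. Neto1 (ENSMUSG00000050321) spans 86394952 to 86506718 of chromosome 18 on the plus strand. Slit2 (ENSMUSG00000031558) spans 47983138 to 48307733 of chromosome 5 on the plus strand, and Kcnip4 (ENSMUSG00000029088) lies on the same chromosome at 48389502 to 49524907 on the minus strand. Cacna2d2 (ENSMUSG00000010066) spans 107399612 to 107529343 of chromosome 9 on the plus strand. Nfib (ENSMUSG00000008575) at 82290173 to 82705750 of chromosome 4, Slc16a7 (ENSMUSG00000020102) at 125219270 to 125389465 of chromosome 10 and Nxph3 (ENSMUSG00000046719) at 95509845 to 95514570 of chromosome 11 are on the minus strand.

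Summed over all bipolar-like cells, 5 of the 10 genes were lower and 4 higher in the db/db library by a log2 ratio of at least 1. Such a ratio was reached downwards by 0.337% and upwards by 0.281% of the 8899 genes with at least 50 UMIs in the class. The genes were chosen on this contrast, so nothing follows from the counts. Levels are UMIs per 1000000 UMIs of the class (CPM), and every log2 ratio is db/db over wild type. Just past that threshold stood Slit2 at -1.06 and Kcnip4 at 1.07, and just short of it Nfib at 0.86. The median over all 8899 genes was -0.02.

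**Figure D1:**
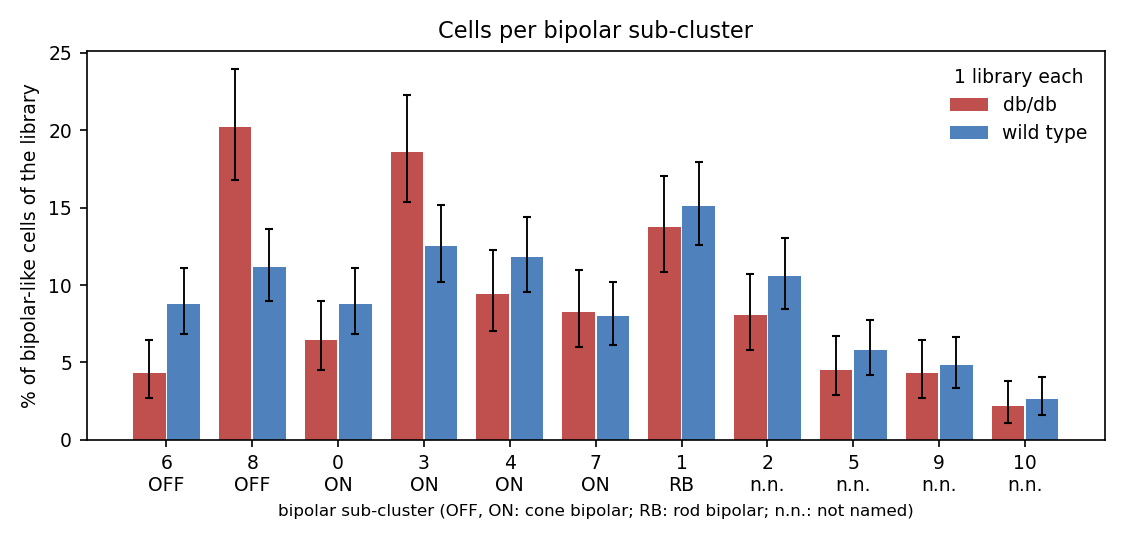
Share of each library's bipolar-like cells in the 11 sub-clusters, in percent, with db/db bars left of wild-type bars and 95% exact binomial intervals (1 library each). Sub-cluster 6 stands at 4.31% in the db/db library and 8.80% in the wild-type library, and sub-cluster 8 at 20.2% and 11.1%.

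The number of cells in the carrying sub-clusters differed between libraries in opposite directions. Sub-cluster 6 held 22 of 510 db/db cells (4.31%, 2.72 to 6.46%) and 64 of 727 wild-type cells (8.80%, 6.85 to 11.1%), a share ratio of 0.490 (0.287 to 0.806). Sub-cluster 8 held 103 db/db cells (20.2%, 16.8 to 23.9%) and 81 wild-type cells (11.1%, 8.95 to 13.7%), a share ratio of 1.81 (1.34 to 2.46). The intervals of both ratios were clear of 1 in counting terms. These sub-clusters were singled out because they carry genes picked for differing between the same libraries. Share differences in these directions follow in part from that choice, and the intervals lend them no support. Together, as OFF cone bipolar-like cells, they made up 24.5% of db/db and 19.9% of wild-type bipolar-like cells, a ratio of 1.23 (0.960 to 1.57) whose interval included 1. That interval was clear of 1 with at least 500 genes per cell (1.43, 1.09 to 1.86), at most 10% mitochondrial UMIs (1.76, 1.28 to 2.41), resolution 2.0 (1.39, 1.08 to 1.80) and marker gates (1.53, 1.17 to 2.01). Rod bipolar-like cells made up 13.7% in the db/db library and 15.1% in the wild-type library, and ON cone bipolar-like cells 42.7% and 41.1%. Outside the OFF group, the Sox6 and Htr3a ON sub-cluster stood at 95 db/db and 91 wild-type cells, a share ratio of 1.49 (1.10 to 2.01). The other 8 sub-clusters had ratios whose intervals included 1.

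The OFF markers stood clearer in sub-cluster 8 than in sub-cluster 6. In sub-cluster 6 the summed 9 OFF markers were at 1872 CPM in db/db and 1484 CPM in wild-type cells. The summed 11 ON cone markers were higher, at 2095 CPM in db/db and 1741 CPM in wild-type cells. In the sub-clusters other than 6 and 8 the ON cone sum was 2279 CPM in db/db and 2273 CPM in wild-type cells. Over the class, Atp2b1 alone held 2576 of 3445 ON cone marker UMIs in db/db and 3898 of 5051 in wild-type cells. In sub-cluster 6, 8 of the 11 ON cone markers were at 0 UMIs in the db/db cells and 2 in the wild-type cells. Of the 8 markers of the mGluR6 cascade of ON cells, Grm6 and Isl1 were at 0 UMIs in the db/db cells and none was at 0 in the wild-type cells. The cascade summed to 1802 CPM in db/db and 2715 CPM in wild-type cells of sub-cluster 6, against 6382 CPM in db/db and 6401 CPM in wild-type cells of the sub-clusters other than 6 and 8. In sub-cluster 8 the OFF sum was 2781 CPM in db/db and 2672 CPM in wild-type cells. In the sub-clusters other than 6 and 8 it was 313 CPM in db/db and 291 CPM in wild-type cells. Median depth in sub-cluster 6 was 3130 UMIs per cell in the db/db library and 3140 in the wild-type library. In sub-cluster 8 it was 2811 in the db/db library and 2112 in the wild-type library. The median mitochondrial share was 7.41% in db/db and 5.92% in wild-type cells of sub-cluster 6, and 5.71% in db/db and 5.29% in wild-type cells of sub-cluster 8. The part of depth and of mitochondrial RNA in the results was not tested.

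**Figure D2:**
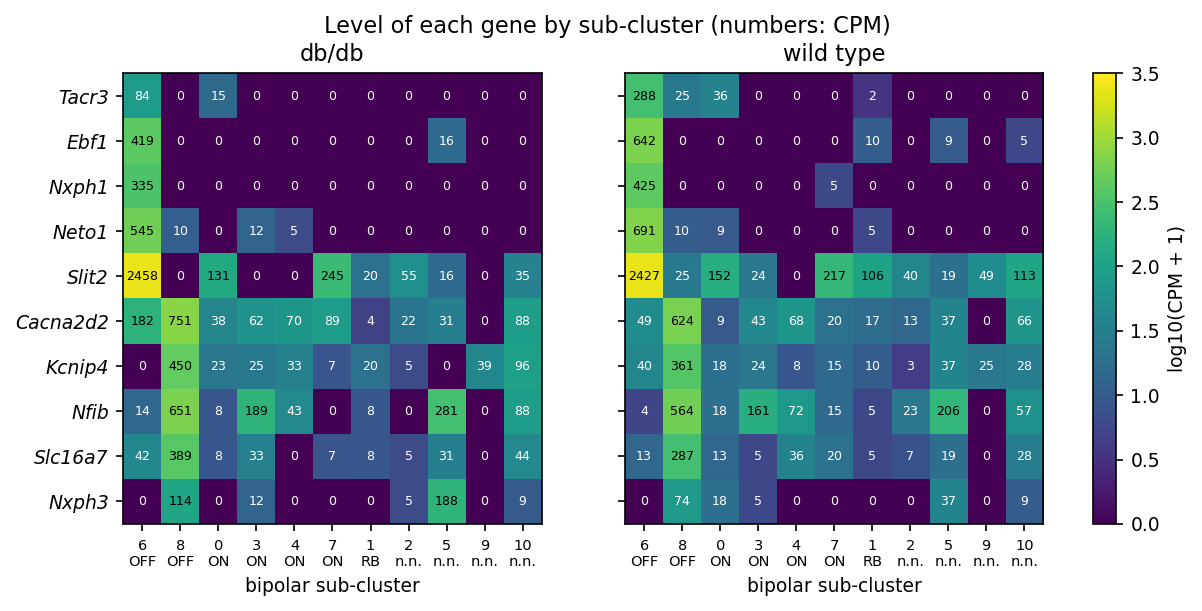
Level of each gene in CPM of the UMIs of each sub-cluster (OFF and ON, cone bipolar; RB, rod bipolar; n.n., not named), printed in each square and coloured as log10(CPM + 1), for the db/db library (left) and the wild-type library (right). Tacr3 to Slit2 are brightest in sub-cluster 6 and Cacna2d2 to Slc16a7 in sub-cluster 8 in both libraries.

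Tacr3 encodes the neurokinin 3 receptor, which binds tachykinin peptides. It had 8 UMIs in 4 db/db cells and 79 UMIs in 28 wild-type cells, that is 4.70 CPM and 33.1 CPM of the class, a log2 ratio of -2.82 (-4.08 to -1.77). Of its 87 UMIs in both libraries, 81.6% lay in sub-cluster 6 and 11.5% in the sub-cluster led by Sox5, Igfn1 and Fn1, named ON, though the finer partition below moved the carrying cells of that sub-cluster to a division named OFF. Inside sub-cluster 6, 3 of 22 db/db cells carried 6 UMIs and 23 of 64 wild-type cells carried 65 UMIs, or 83.8 CPM against 287.9 CPM. The ratio there was -1.78 (-3.28 to -0.58), so the number of cells and the summed level of the sub-cluster were both lower in the db/db library. The db/db level rests on 6 UMIs in 3 cells. All these UMIs lay in 6 db/db and 31 wild-type cells that the finer partition below sets apart. The mix of cells inside sub-cluster 6 thus enters this level. With each cell thinned to 1000 UMIs the difference in carriers inside sub-cluster 6 was not detectable, with 1 of 19 db/db and 12 of 56 wild-type cells, a share ratio of 0.246 (0.00575 to 1.66).

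Ebf1 encodes a helix-loop-helix transcription factor. It had 31 UMIs in 7 db/db cells and 151 UMIs in 32 wild-type cells, 18.2 CPM and 63.2 CPM, a log2 ratio of -1.80 (-2.40 to -1.23). Sub-cluster 6 held 96.2% of its UMIs. Each carrying cell of that sub-cluster had a mean of 5.00 UMIs in both libraries, in 6 of 22 db/db cells and 29 of 64 wild-type cells. The level inside the sub-cluster was 419 CPM in db/db and 642 CPM in wild-type cells, a ratio of -0.62 (-1.23 to -0.04).

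Nxph1 encodes a neurexophilin, a secreted ligand of alpha-neurexins at synapses. It had 24 UMIs in 5 db/db cells and 97 UMIs in 27 wild-type cells, 14.1 CPM and 40.6 CPM, a log2 ratio of -1.53 (-2.24 to -0.87). Sub-cluster 6 held 99.2% of its UMIs, with 335 CPM in db/db cells and 425 CPM in wild-type cells. The ratio inside the sub-cluster was -0.34 (-1.05 to 0.31), within counting error.

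Neto1 encodes an auxiliary subunit of kainate and NMDA receptors. It had 46 UMIs in 11 db/db cells and 162 UMIs in 32 wild-type cells, 27.0 CPM and 67.8 CPM, a log2 ratio of -1.33 (-1.83 to -0.85). Sub-cluster 6 held 93.8% of the UMIs, at 545 CPM in db/db and 691 CPM in wild-type cells, a ratio of -0.34 (-0.89 to 0.17). Grik1, a kainate receptor subunit, was instead a leading gene of sub-cluster 8.

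Slit2 encodes a secreted guidance ligand of Robo receptors. It had 246 UMIs in 55 db/db cells and 720 UMIs in 138 wild-type cells, 144.5 CPM and 301.4 CPM, a log2 ratio of -1.06 (-1.28 to -0.85). Sub-cluster 6 held 74.9% of its UMIs, in 21 of 22 db/db cells and 61 of 64 wild-type cells. Its level there was the same in both libraries within a narrow interval, 2458 CPM in db/db and 2427 CPM in wild-type cells, a ratio of 0.02 (-0.23 to 0.27). By this sub-cluster, the libraries differed for Slit2 in the number of cells, and not detectably in the level inside them. That reading depended on the groups used: inside the looser gate on leading genes described below, Slit2 was at -0.66 (-0.90 to -0.43).

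Slit2 was also present outside OFF cells. In the ON sub-cluster led by Cck and Grin3a it stood at 245 CPM in db/db and 217 CPM in wild-type cells, a ratio of 0.18 (-0.52 to 0.86). In rod bipolar-like cells, 5 of 70 db/db cells held 5 UMIs and 24 of 110 wild-type cells held 44 UMIs, a ratio of -2.43 (-4.12 to -1.10). After each cell was thinned to 1000 UMIs, 3 of 66 db/db and 5 of 101 wild-type rod bipolar-like cells carried it, a share ratio of 0.918 (0.143 to 4.72), so no difference in carriers was detectable at that depth.

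**Figure D3:**
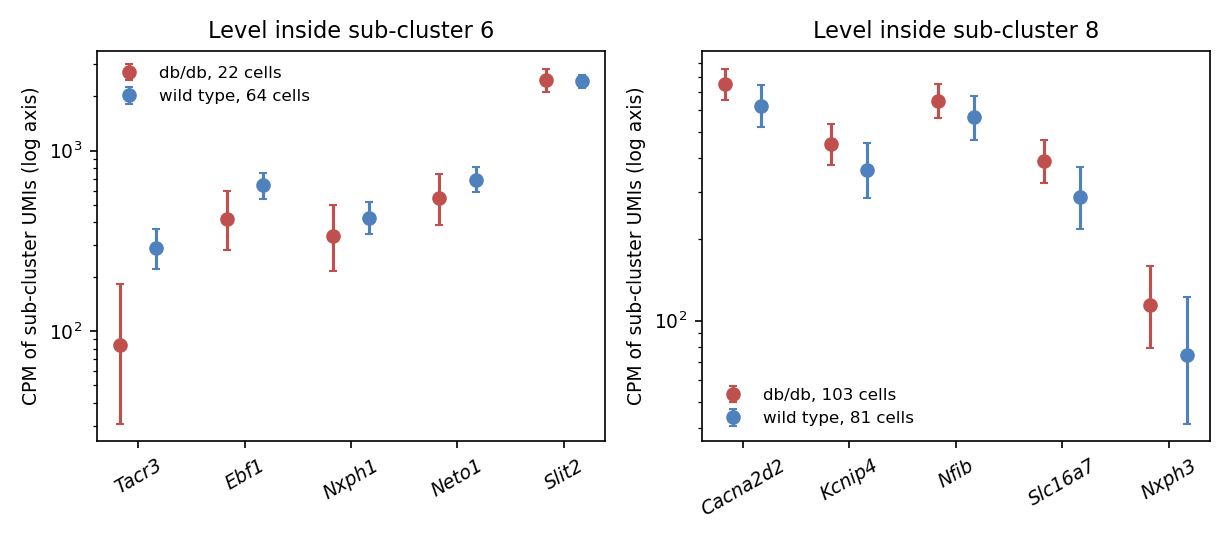
Level of the 5 genes of sub-cluster 6 (left) and of the 5 genes of sub-cluster 8 (right) inside those cells, in CPM on a log axis, with db/db left of wild type and 95% Poisson intervals. Slit2 stands at 2458 CPM in db/db and 2427 CPM in wild-type cells, and the intervals of Tacr3 do not overlap.

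The genes of sub-cluster 8 showed the opposite direction. Cacna2d2, the alpha2delta-2 subunit that helps place voltage-gated calcium channels, had 299 UMIs in 133 db/db cells and 198 UMIs in 117 wild-type cells, 175.6 CPM and 82.9 CPM, a log2 ratio of 1.08 (0.82 to 1.35). Sub-cluster 8 held 70.4% of its UMIs, at 751 CPM in db/db and 624 CPM in wild-type cells, a ratio of 0.27 (-0.05 to 0.60). Outside sub-cluster 8 the ratios of Cacna2d2 varied. It was higher in the db/db library in sub-cluster 6, with 13 UMIs in db/db and 11 in wild-type cells, a ratio of 1.90 (0.62 to 3.20). In ON cone bipolar-like cells it had 45 UMIs in the db/db library and 32 in the wild-type library, a ratio of 0.85 (0.16 to 1.55). In the unnamed sub-clusters it was at 0.31 (-0.72 to 1.31), and in rod bipolar-like cells, with 1 UMI in db/db and 7 UMIs in wild-type cells, at -2.10 (-7.59 to 0.86).

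Kcnip4 encodes a calcium-binding protein that associates with Kv4 potassium channels. It had 168 UMIs in 92 db/db cells and 112 UMIs in 70 wild-type cells, 98.7 CPM and 46.9 CPM, a log2 ratio of 1.07 (0.72 to 1.43). Sub-cluster 8 held 73.9% of its UMIs, at 449.5 CPM in db/db and 361 CPM in wild-type cells, a ratio of 0.32 (-0.11 to 0.75). In sub-cluster 6 it had 0 UMIs in db/db cells and 9 in wild-type cells. With the 0 set to 3 UMIs the ratio there was 0.07, and its interval ended at 0.68, so no difference was detectable at this depth.

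Nfib encodes a nuclear factor I transcription factor. It had 280 UMIs in 133 db/db cells and 217 UMIs in 116 wild-type cells, 164.5 CPM and 90.8 CPM, a log2 ratio of 0.86 (0.60 to 1.12). Sub-cluster 8 held 62.0% of its UMIs, at 651 CPM in db/db and 564 CPM in wild-type cells, a ratio of 0.21 (-0.13 to 0.55). A further 16.1% of its UMIs lay in the Sox6 and Htr3a ON sub-cluster, at 189 CPM in db/db and 161 CPM in wild-type cells. Of these, 9 UMIs in 12 db/db cells and 7 UMIs in 20 wild-type cells fell in a division of the finer partition below. That division was led by Apoe, Dkk3 and Rlbp1, which are Muller glia markers, so not all of this share can be credited to ON cells. Another 8.0% lay in the unnamed sub-cluster led by Gas1. OFF cone bipolar-like cells held 62.4% of its UMIs, the lowest share of the 10 genes and close to the 63.6% of Nxph3.

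Slc16a7 encodes the monocarboxylate transporter MCT2, which carries lactate and pyruvate. It had 139 UMIs in 77 db/db cells and 90 UMIs in 61 wild-type cells, 81.6 CPM and 37.7 CPM, a log2 ratio of 1.12 (0.72 to 1.51). Sub-cluster 8 held 76.0% of its UMIs, at 389 CPM in db/db and 287 CPM in wild-type cells, a ratio of 0.44 (-0.03 to 0.92). In the ON sub-cluster led by Kirrel3 and Lrrtm1, no db/db cell and 9 wild-type cells carried it.

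Nxph3 encodes another neurexophilin. It was the thinnest of the 10, with 51 UMIs in 39 db/db cells and 26 UMIs in 24 wild-type cells, 29.96 CPM and 10.9 CPM, a log2 ratio of 1.46 (0.75 to 2.20). Sub-cluster 8 held 63.6% of its UMIs, at 114 CPM in db/db and 74.2 CPM in wild-type cells, a ratio of 0.62 (-0.30 to 1.60). Sub-cluster 5, unnamed and led by Gas1, held another 20.8%, with 12 UMIs in 9 of 23 db/db cells and 4 UMIs in 4 of 42 wild-type cells, a ratio of 2.32 (0.60 to 4.41). At 187.5 CPM in db/db and 37.4 CPM in wild-type cells, its db/db level there was above that in sub-cluster 8, and 39.1% of the db/db cells of sub-cluster 5 carried it, beside 24.3% of those of sub-cluster 8. Nxph1 and Nxph3, ligands of one family, were thus found in different OFF sub-clusters: Nxph1 had no UMI in sub-cluster 8 and Nxph3 none in sub-cluster 6, in either library.

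Among the genes with at least 50 UMIs, 1 of 5 in sub-cluster 6 passed a log2 ratio of 1, the lower Tacr3, and 0 of 4 in sub-cluster 8. Over all genes measured there, 2.85% of 1122 genes were lower and 0.178% higher by that much in sub-cluster 6, and 0.579% of 2071 lower and 0.386% higher in sub-cluster 8. In OFF cone bipolar-like cells as a whole, where the sub-clusters are summed, 5 of 9 measured genes were lower and 2 higher, beside 1.9% and 0.694% of 3312 genes. Most of the UMIs on which the genes were picked lie in OFF cells, so nothing follows from these OFF counts. In ON cone bipolar-like cells 3 of the 10 were measured and 0 passed, where 0.575% of 5744 genes did in either direction.

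The class ratio of each gene was split by giving the db/db sub-clusters the UMI shares of the wild-type library. With shares held in this way, Slit2 was at -0.11, Nfib at 0.14, Neto1 at -0.33, Nxph1 at -0.36, Kcnip4 at 0.35, Slc16a7 at 0.36 and Cacna2d2 at 0.50. Ebf1 was at -0.65, Nxph3 at 0.92 and Tacr3 at -1.82. The wild-type levels with db/db shares gave -0.76 for Tacr3, -1.12 for Ebf1, -1.15 for Nxph1, -1.08 for Neto1 and -0.85 for Slit2. On the other side the shares gave 0.72 for Cacna2d2, Kcnip4 and Slc16a7, 0.70 for Nfib and 0.65 for Nxph3. By this split the sub-cluster shares held the larger part of the class ratio for all genes except Tacr3 and Nxph3. That order turned for the other 8 genes when marker gates took the place of sub-clusters. With gate shares held, Slit2 was at -1.20, Ebf1 at -2.28, Nxph1 at -2.11, Neto1 at -1.79, Kcnip4 at 0.58, Cacna2d2 at 0.61, Slc16a7 at 0.62 and Nfib at 0.47, while gate shares alone gave 0.16 for Slit2, 0.40 for Ebf1, 0.28 for Nxph1, 0.48 for Neto1 and Kcnip4, 0.38 for Cacna2d2, 0.43 for Slc16a7 and 0.33 for Nfib. The OFF marker gate does not tell sub-clusters 6 and 8 apart, so a shift between their cells is counted there as level. For that reason the marker gates cannot decide between cell numbers and levels, and the split depended on the groups used.

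**Figure D4:**
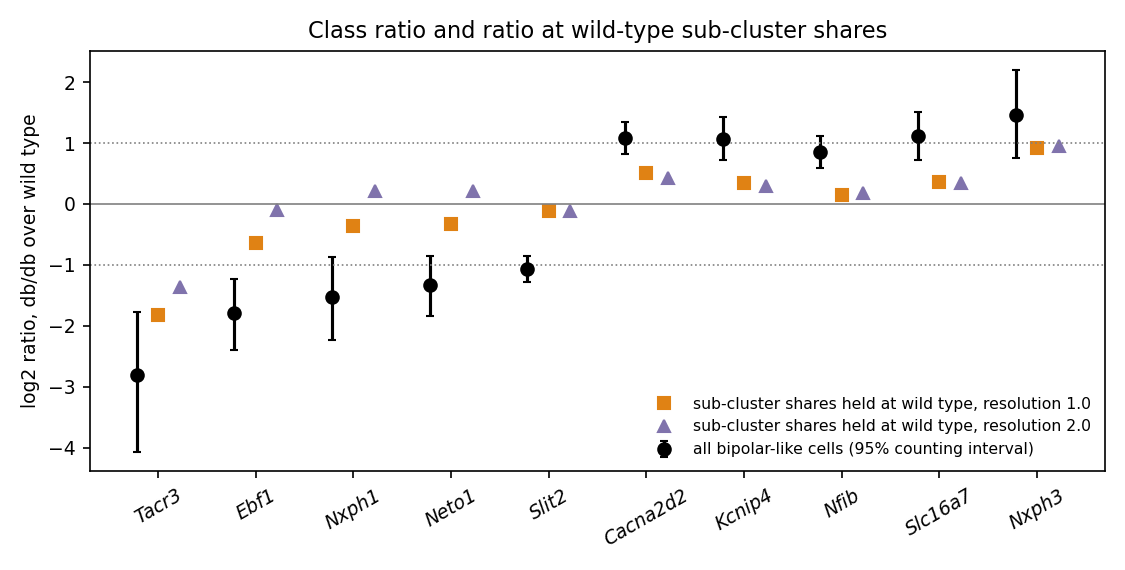
Log2 ratio of db/db over wild type for each gene, over all bipolar-like cells with its 95% counting interval (circles) and with sub-cluster shares held at their wild-type values at 2 clustering resolutions (squares 1.0, triangles 2.0), with dotted lines at a log2 ratio of 1 and -1. Tacr3 at -1.36 or below and Nxph3 at 0.92 or above stay farthest from 0 once shares are held.

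A finer partition into 18 sub-clusters divided sub-cluster 6. Ebf1, Nxph1 and Neto1 lay in a division led by Lamp5, Syt2, Chrnb3 and Pde1a besides these genes, with 6 db/db cells and 31 wild-type cells, a share ratio of 0.276 (0.0941 to 0.671). This division had only 2 OFF markers and stayed unnamed. Inside it Ebf1 stood at 1068 CPM in both libraries, a ratio of 0.00 (-0.62 to 0.58), and was carried by 6 of 6 db/db cells and 28 of 31 wild-type cells. Nxph1 was at 0.30 (-0.41 to 0.96) and Neto1 at 0.25 (-0.29 to 0.77). Ebf1, which had been lower inside sub-cluster 6 as a whole, therefore did not differ inside the division that carries it beyond counting error.

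Tacr3 kept a lower value in that division, with 6 UMIs in 3 of 6 db/db cells and 65 UMIs in 23 of 31 wild-type cells, a ratio of -1.21 (-2.71 to -0.01). It also had 2 UMIs in db/db and 13 UMIs in wild-type cells of an OFF division led by Lrp1b and Fat4, a ratio of -2.28 (-5.47 to -0.13), which held 16 db/db and 22 wild-type cells. Of these cells, 6 db/db and 14 wild-type ones, with 2 UMIs in db/db and 8 UMIs in wild-type cells, came from the Sox5 sub-cluster named ON, and 10 db/db and 8 wild-type ones, with 0 and 5 UMIs, from sub-cluster 8. The intervals end close to 0 and rest on few carriers.

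Slit2 was shared by 2 divisions. The Lamp5 division had 70 UMIs in db/db and 305 UMIs in wild-type cells, a ratio of 0.10 (-0.30 to 0.48), and the OFF division led by Erbb4, Irx6 and Hcn4, with 16 db/db and 32 wild-type cells, had 106 UMIs in db/db and 242 UMIs in wild-type cells, a ratio of -0.11 (-0.46 to 0.22). The share ratio of the Erbb4 division was 0.713 (0.365 to 1.34), within counting error of 1.

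Sub-cluster 8 was divided as well, and its larger division, led by Adamtsl1, Slitrk6 and Otor, held 81 db/db and 57 wild-type cells, a share ratio of 2.03 (1.43 to 2.89). Cacna2d2 was higher in that division, with 198 UMIs in db/db and 80 UMIs in wild-type cells, a ratio of 0.54 (0.16 to 0.94). Nfib was at -0.04 (-0.43 to 0.36), Kcnip4 at 0.40 (-0.09 to 0.90), Slc16a7 at 0.47 (-0.08 to 1.05) and Nxph3 at 0.99 (-0.19 to 2.34). The smaller division, led by Lrrtm3 and Nnat, held 11 db/db and 16 wild-type cells, a ratio of 0.980 (0.411 to 2.25). There Slc16a7 was at -0.01 (-1.05 to 1.04) and Kcnip4 at -0.09 (-1.32 to 1.14). An ON division of the finer partition, led by Sox6 and Tns1, held 64 db/db and 42 wild-type cells. Its share ratio was 2.17 (1.45 to 3.29), so a higher db/db share was not particular to the OFF divisions.

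With shares held at the finer partition, Ebf1 was at -0.09, Nxph1 at 0.21, Neto1 at 0.22, Slit2 at -0.12 and Tacr3 at -1.36. The genes of sub-cluster 8 were at 0.18 for Nfib, 0.30 for Kcnip4, 0.34 for Slc16a7, 0.42 for Cacna2d2 and 0.96 for Nxph3. Nxph1 and Neto1 thus changed sign between the partitions, with all values between -0.36 and 0.22.

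Cells were also gated on marker UMIs without clustering. The fixed markers put 116 db/db cells (22.7%) and 108 wild-type cells (14.9%) in the OFF gate, a share ratio of 1.53 (1.17 to 2.01). Inside it the ratios of the genes of sub-cluster 6 lay between -2.96 for Tacr3 and -1.32 for Slit2, and those of the genes of sub-cluster 8 between 0.60 for Nfib and 0.86 for Nxph3. That gate does not tell the OFF subtypes apart, and 269 of 1237 cells had best and second marker sums within 1 UMI. Of the Slit2 UMIs, 110 db/db and 345 wild-type UMIs fell in the ON gate, against 111 and 236 in the OFF gate. Tacr3 had 6 UMIs in db/db and 40 UMIs in wild-type cells of the OFF gate, and 2 UMIs in db/db and 25 UMIs in wild-type cells of the ON gate.

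Gates were also set on the 10 leading genes of each OFF sub-cluster, leaving out the genes described here, after the clusters were seen. Their share ratios had the same directions. That follows in part from taking the gate genes from those sub-clusters of the same cells, so it lends the shares no support. At least 3 UMIs of the sub-cluster 6 genes were found in 50 db/db cells (9.80%) and 110 wild-type cells (15.1%), a share ratio of 0.648 (0.454 to 0.913). The gate of sub-cluster 8 took 116 db/db cells (22.7%) and 109 wild-type cells (14.99%), a share ratio of 1.52 (1.16 to 1.99). These gates were looser: 18 of 50 db/db and 56 of 110 wild-type cells of the first also belonged to sub-cluster 6, and 102 of 116 db/db and 78 of 109 wild-type cells of the second to sub-cluster 8. Inside the first gate Tacr3 was at -2.18 (-3.45 to -1.12), Ebf1 at -1.38 (-1.98 to -0.81), Nxph1 at -1.11 (-1.82 to -0.45), Neto1 at -1.12 (-1.66 to -0.61) and Slit2 at -0.66 (-0.90 to -0.43). Inside the second, Cacna2d2 was at 0.71 (0.41 to 1.02), Kcnip4 at 0.77 (0.37 to 1.18), Nfib at 0.71 (0.38 to 1.05) and Slc16a7 at 0.75 (0.31 to 1.20). The intervals of Nxph1, Neto1, Slit2, Cacna2d2, Kcnip4, Nfib and Slc16a7 were clear of 0 inside the gates and included 0 inside the sub-clusters. Since the part of gated cells that belonged to the sub-cluster differed between the libraries, the mix of cells enters the gate ratios. These gates therefore cannot decide between cell numbers and levels either.

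The number of carrying cells was compared at equal depth. The genes were picked on their summed counts over this class, so the directions of these carrier ratios follow in part from that choice. Each cell was thinned to 1000 UMIs, which left 462 db/db and 620 wild-type bipolar-like cells and set aside 48 and 107 shallower ones. Tacr3 was found in 1 db/db cell (0.216%) and 14 wild-type cells (2.26%), a share ratio of 0.0959 (0.00227 to 0.630), against unthinned shares of 0.784% in db/db and 3.85% in wild-type cells. Ebf1 was found in 2 db/db and 22 wild-type cells, and Slit2 in 32 (6.93%) and 72 (11.6%), a ratio of 0.596 (0.380 to 0.916). Nxph1, in 3 db/db and 14 wild-type cells, and Neto1, in 6 and 17, had intervals that included 1.

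On the other side, Kcnip4 was found in 41 db/db cells (8.87%) and 24 wild-type cells (3.87%), a ratio of 2.29 (1.35 to 3.97). Slc16a7 was found in 32 db/db and 20 wild-type cells, a ratio of 2.15 (1.19 to 3.96), Cacna2d2 in 62 and 49, a ratio of 1.70 (1.15 to 2.52), and Nfib in 66 and 56, a ratio of 1.58 (1.09 to 2.30). Nxph3, in 13 db/db and 11 wild-type cells, was at 1.59 (0.656 to 3.91). Rod-like cells, which should lack most of these genes, carried Cacna2d2 in 1.86% of db/db and 1.98% of wild-type cells and Nfib in 0.511% and 0.492%. The other 8 genes were in at most 0.261% of rod-like cells of either library.

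**Figure D5:**
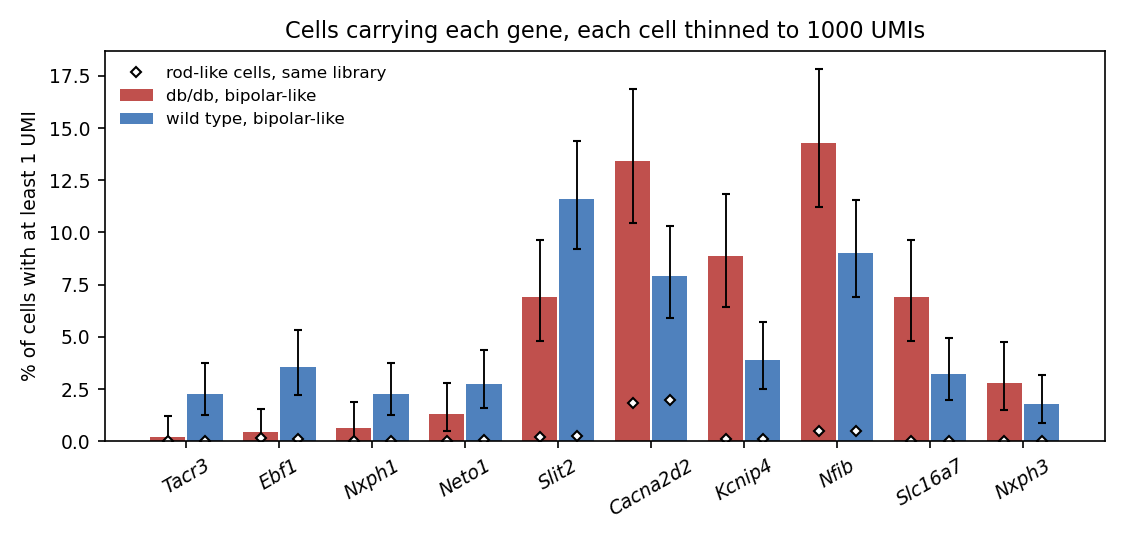
Share of cells with at least 1 UMI of each gene after every cell was thinned to 1000 UMIs, in percent, for bipolar-like cells (bars, db/db left of wild type, 95% exact binomial intervals) and rod-like cells (diamonds). Bars stand above the diamonds of the same library for each gene, and Cacna2d2 has the highest diamonds, at 1.86% in db/db and 1.98% in wild-type rod-like cells.

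Within sub-cluster 8 the thinned carrier shares had ratios from 1.02 to 1.64, all with intervals that included 1. Cacna2d2 was in 49 of 98 db/db cells and 33 of 67 wild-type cells, a share ratio of 1.02 (0.640 to 1.63), and Kcnip4 in 36 db/db and 15 wild-type cells, 1.64 (0.876 to 3.23). Nfib was at 1.37 (0.802 to 2.40), Slc16a7 at 1.27 (0.639 to 2.63) and Nxph3 at 1.23 (0.370 to 4.67). In sub-cluster 6, Slit2 was in 15 of 19 db/db cells and 42 of 56 wild-type cells, a share ratio of 1.05 (0.542 to 1.94). The other genes of sub-cluster 6 had fewer carriers there in the db/db library, with Ebf1 in 2 of 19 db/db and 22 of 56 wild-type cells, 0.268 (0.0305 to 1.09), Tacr3 at 0.246 as above, Nxph1 at 0.680 (0.124 to 2.48) and Neto1 at 0.693 (0.170 to 2.13). None of these intervals excluded 1, and with 19 db/db cells they do not show that the shares were alike.

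Other genes of the same sub-clusters showed the same directions over the whole class, which is fixed in part by how the sub-clusters were built. Among leading genes of sub-cluster 6, Chrnb3, a nicotinic receptor subunit, was at -1.33, Syt2, a synaptotagmin of vesicle release, at -1.21, Lamp5 at -0.94 and the transcription factor Irx6 at -0.76. Inside sub-cluster 6 their ratios had intervals that included 0, with Irx6 at 0.13 (-0.57 to 0.79) and Chrnb3 at -0.73 (-1.71 to 0.14). Of sub-cluster 8, Slitrk6 was at 0.85, Grik1 at 0.76 and Otor at 0.71 over the class. Inside it, Grik1 was at 0.09 (-0.09 to 0.28) and Slitrk6 at 0.43 (0.14 to 0.71).

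Across 18 units, the 11 bipolar sub-clusters and 7 other retinal classes with libraries pooled, the genes most alike in pattern were picked by Pearson's r of log2(CPM + 1). The units share the libraries and the clustering, and r is a description. Tacr3 was most like Neto1 (0.88) and Lrp1b (0.84), and Nxph1 most like Neto1 (0.79) and Irx6 (0.74). Slit2 was most like Zfhx4 (0.87), Kcnip4 most like Cacna2d1 (0.91), Slc16a7 and Nxph3 both close to Nnat (0.89 and 0.73), Nfib to Spred1 (0.86), and Cacna2d2 to Msra (0.91). Ebf1 had the weakest best match, Nxph1 at 0.67.

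Outside bipolar cells, Nfib was highest in Muller glia-like cells, at 325 CPM in db/db and 321.5 CPM in wild-type cells, with close values in both libraries. Amacrine-like cells, 29 in the db/db library and 111 in the wild-type library, held Cacna2d2 at 86.0 CPM in db/db and 139 CPM in wild-type cells. They also held Ebf1, at 148.6 CPM from 19 UMIs in db/db and 23.8 CPM from 14 UMIs in wild-type cells. Tacr3 was at 0 UMIs in the db/db and 14 UMIs in the wild-type amacrine-like cells. The 10 amacrine markers summed to 300 CPM in db/db and 463 CPM in wild-type bipolar-like cells. In sub-cluster 6 they were at 698 CPM in db/db and 669 CPM in wild-type cells, with 8 of 10 at 0 UMIs in the db/db cells and 4 of 10 in the wild-type cells, Gad2 and Pax6 in both. Rod markers summed to 17156 CPM in db/db and 19369 CPM in wild-type bipolar-like cells, and their part in the results was not tested.

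Of the genes of the same pathways, taken from lists of related genes without the 10 themselves, none of those with at least 50 UMIs passed a log2 ratio of 1. Of the neurexophilin and neurexin list, 9 of 12 were measured with a median of 0.15, with Lrrtm3, a synaptic adhesion protein and itself a leading gene of sub-cluster 8, at 0.69 (0.28 to 1.10). In the calcium channel list 11 of 16 were measured with a median of -0.02. Its largest ratios were for Cacna1a, the P/Q-type pore subunit, at 0.92 (0.28 to 1.58) and Cacna2d1 at 0.49 (0.19 to 0.79). Of the Slit and Robo list 3 of 8 were measured, at a median of 0.06, with the Slit2 receptor Robo2 at 0.13 (-0.08 to 0.34). Kcnd3, the Kv4.3 channel that KChIPs bind, was at 0.79 (0.24 to 1.36), and Nfia, another nuclear factor I, at 0.33 (0.15 to 0.52). The monocarboxylate transport list had 6 of 8 measured at a median of -0.02, with Slc16a3 at 0.27 (-0.15 to 0.69). No other member of the tachykinin or EBF list reached 50 UMIs: Tacr1 had 14 UMIs in db/db and 16 UMIs in wild-type cells. Below that minimum, Kcnip3, of the family of Kcnip4, had 3 UMIs in db/db and 18 UMIs in wild-type cells, a ratio of -2.10 (-4.50 to -0.32). Cacna1e, the R-type calcium channel pore subunit, had 21 UMIs in db/db and 12 UMIs in wild-type cells, 1.30 (0.21 to 2.45), and Cacna1c, of the L-type channel, 4 and 2 UMIs, 1.49 (-1.31 to 4.96). Nxph4, a neurexophilin, had 3 UMIs in db/db and 14 UMIs in wild-type cells, -1.73 (-4.17 to 0.11).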

How the data were processed

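Single-cell RNA was measured in 2 libraries, 1 per genotype. The deposited values were raw UMI counts per gene and cell, written by version 6.0.1 of cellranger, per the file headers, with mm10 as the build, per the submitters' processing notes. For the annotation release, cell calling and use of strand the entry is: not given in the sources used here. Per the labels, some 6000 cells were loaded to recover some 3000, below the barcode number of each matrix. Of the 32285 gene identifiers, 32235 were found in GENCODE M21.

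Cells with at least 200 genes and at most 20% mitochondrial UMIs were kept; the limits removed 7 and 113 db/db and 1 and 77 wild-type barcodes. Scrublet marked 2 db/db cells and 0 wild-type cells (0.018% and 0%), too few for a caller that worked, so doublets stayed in. Cells were clustered with scanpy 1.11.5 in 2 rounds (2000 variable genes, 40 components, 15 neighbours, Leiden resolution 1.0), without integration. Bipolar-like cells were clustered again without the 10 genes and without sex-linked genes (1500 variable genes, 25 components, resolutions 1.0 and 2.0). A name needed at least 3 markers at 2 times the level in the cells compared with. For retinal clusters these were clusters first named as another class, without rod and unnamed clusters. For bipolar sub-clusters they were all other bipolar-like cells. Clusters whose 10 leading genes were richer in markers of another class had no name. Names were rebuilt here and may differ from the study's.

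UMIs were summed per library and group and scaled to 1000000. Ratios have exact conditional binomial intervals, shares Clopper-Pearson and sums Poisson intervals, at 95%. A count of 0 was set to 3 in a ratio, and no ratio is given where both counts were 3 or fewer. No test between genotypes was possible. The ratio step was tested on simulated data. The 10 genes, the markers and the gene lists were chosen with earlier results of these data known. Genes named beside the 10 were the 3 most alike (at least 100 UMIs) and up to 3 with the largest ratios per list, and leading genes were named after their values were seen. Alternatives concerned cell filters, doublets, resolution, marker gates, scaling, thinning, free RNA and weighting.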

Additional observations from a re-analysis of the deposited data

Results flagged for a closer look

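Slc16a7 differed in opposite directions in 2 bipolar groups. In OFF cone bipolar-like cells it had 119 UMIs in the db/db library and 61 UMIs in the wild-type library, a log2 ratio of 1.17. That value sums sub-clusters 6 and 8, whose shares differed between the libraries. Inside sub-cluster 8, with 76.0% of the UMIs of Slc16a7, the interval of the ratio included 0. Slc16a7 was picked on counts that lie mostly in OFF cells, so the higher OFF value follows in part from that choice. In sub-cluster 4, the ON cone bipolar-like cells led by Kirrel3 and Lrrtm1, it had 0 UMIs in db/db and 9 UMIs in wild-type cells. With the 0 set to 3 UMIs that ratio was -1.16, with a counting interval that ended at -0.55. The difference between the groups was not tested, and 9 UMIs in 86 cells are few.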

How the results depend on the processing

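Each of the 10 class ratios kept its sign under 8 alternatives (77 values stayed within counting error and 3 did not: Cacna2d2 0.81 and Slit2 -0.83 with equal weight per cell, Nfib 0.59 without the cells of highest doublet scores). Past a log2 ratio of 1 were 9 genes in the main analysis and 6 to 9 under alternatives, with 8 without sub-clusters 2 and 10. Over all genes 55 passed, against 8 with at least 200 UMIs and 3520 with no minimum. The composition-held ratio changed sign for Neto1, to 0.22 with at least 500 genes per cell, at most 10% mitochondrial UMIs and resolution 2.0, and for Nxph1, to 0.22, 0.00074 and 0.21 in that order. With marker gates in place of sub-clusters it was -2.28 for Ebf1, -1.79 for Neto1, -2.11 for Nxph1, -1.20 for Slit2, -3.28 for Tacr3 and 0.47 for Nfib. These gates do not tell the OFF sub-clusters apart.

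The OFF share was 23.9% in db/db and 16.7% in wild-type cells with 500 genes, 23.5% and 13.4% with 10% mitochondrial UMIs, 22.7% and 14.9% with marker gates, and 22.1% and 16.7% without high doublet scores. Its ratio, 1.23 with an interval that included 1, was then 1.43, 1.76, 1.53 and 1.32, with 1 inside the interval under the last of these alone; it was 1.39 at resolution 2.0 (interval clear of 1) and 1.15 with genes scaled per library (interval including 1). The ON share was 35.7% in db/db and 31.4% in wild-type cells with 500 genes, 49.4% and 51.9% with marker gates, 33.7% and 29.3% at resolution 2.0, and 35.9% and 33.0% with genes scaled per library. Marker gates put 20.8% of db/db and 23.7% of wild-type cells in the rod bipolar gate. The shares of sub-clusters 6 and 8, with clusters matched by their cells (chosen after seeing the data), stayed within counting error except under the leading-gene gates, at 9.80% of db/db and 15.1% of wild-type cells for sub-cluster 6 and 14.99% of wild-type cells for sub-cluster 8. The cause of the moves under these settings was not tested. No paired analysis was possible because each genotype has 1 library, and for the same reason no replicate could be left out. Free RNA, taken from rod opsin, was at most 36.5% of UMIs in db/db and 38.7% in wild-type bipolar-like cells.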
